A study of Mus musculus with 6 samples.

Results

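Meis, Pbx and Pknox genes encode homeodomain transcription factors of the TALE class, which bind DNA together with Hox proteins. Members were the rows of the deposited count table whose gene symbol is Meis1, Meis2, Meis3, Pbx2, Pbx3, Pbx4, Pknox1 or Pknox2, which made 8 of 56805 genes. The rule itself uses gene names and no measured value. The series, whose title concerns Hox5 genes and motor neuron diversity, compared mouse motor neurons at e12.5 taken from cervical and from thoracic levels of the spinal cord. Each region was sequenced in 3 libraries labelled as biological replicates, all of genotype control and without treatment, so that region was the only difference between groups. The sources used here do not give the alleles behind the label control, the way the cells were isolated or the number of embryos in a library. P-values therefore measure the spread between these libraries.

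Pbx proteins contact a short motif next to the homeodomain of many Hox proteins, and the pair reads a longer DNA site than either protein alone. Meis and Pknox proteins (the latter are also called Prep) bind Pbx proteins through their amino-terminal part, favour their location in the nucleus and can join a larger complex with Hox. Hox genes set position along the body axis and motor neuron identity at each level of the spinal cord, and Pbx proteins are needed for the normal organisation of motor columns in the mouse. The comparison of regions asks whether the cofactor genes differed between cervical and thoracic levels.

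All 8 genes were detected in all 6 libraries and passed the low-count filter, and edgeR's quasi-likelihood test, adjusted over all genes, called none different between the regions. DESeq2 and edgeR without a low-count filter each called 1, Pbx3. Over all genes these 2 settings called 408 of 21972 and 747 of 39190, where the main test called 119 of 21972. Pbx3 had the highest level per exon length and the largest difference, 1.20-fold higher in cervical libraries, which did not pass adjustment in the main test. Meis2, Pknox1 and Pknox2 had estimates between 1.10-fold and 1.13-fold toward cervical, and Meis1, Meis3, Pbx2 and Pbx4 lay within 1.08-fold of equality. The 95% interval of the fold change lay inside 1.5-fold in either direction for 8 of the 8 genes, where 51.0% of all tested genes had such an interval. That share covers genes of every level and was not computed for genes as abundant as the 8. Among the 10200 tested genes within their range of mean CPM, the median size of log2 fold change was 0.0715, against 0.119 for the 8.

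The class takes its name from an extended loop in the homeodomain. The coding sequence of that loop is shown here because it defines the class. The consecutive codons CCN, TAN and CCN were searched in the reading frame, on the coding strand, in the longest coding sequence of each gene (GENCODE M21, GRCm38), and each of the 8 genes held 1 match. Among 21562 genes with a coding sequence, 995 (4.61%) held a match. Capitals mark the 9 bases of the match, in a window of 30 bases read 5′ to 3′ on the coding strand.
Meis1: ctaacacacCCTTACCCTtctgaagaacag
Meis2: ctcacacacCCGTACCCTtcagaagaacag
Meis3: ctctcgcacCCGTACCCTtcagaagagcaa
Pbx2: ctgagcaacCCTTACCCTagtgaggaggcc
Pbx3: ctcagcaacCCCTACCCCagtgaagaagcc
Pbx4: ttgagcaacCCTTACCCCagtgaagagacc
Pknox1: atagggcatCCCTACCCAacagaggatgag
Pknox2: ctcatgcacCCCTATCCCactgaagatgag

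Within the window, Meis genes shared 23 to 27 of 30 bases with each other, Pbx genes 25 to 26, and the Pknox pair 21. Between subfamilies the count was 15 to 22 bases. The fixed letters of the search are alike in every pair by the choice of window. Of the 21 bases outside the capitals, Meis genes shared 15 to 19 and Pbx genes 17 to 18. The Pknox pair shared 14, fewer than the 15 that Pknox2 shared with Meis1 and with Meis2. The capitals lie in exon 5 of the Pbx transcripts, at chr17:34594655-34594663 for Pbx2 and chr8:69866541-69866549 for Pbx4 on the plus strand and chr2:34204834-34204842 for Pbx3 on the minus strand (GRCm38). In the other genes they lie in exon 9, for example at chr11:18905754-18905762 for Meis1 and chr2:115921737-115921745 for Meis2, both on the minus strand. Despite this likeness, no run of 50 bases was common to the transcripts of any 2 of the 8 genes. Such runs were shared with genes outside the set for 9.16% of Meis1 (nearly all with Gm37818), 4.93% of Pbx2 (with Gpsm3) and 0.124% of Meis2, and for none of the other 5 genes. Transcripts were compared in their own direction only, so overlaps with genes on the opposite strand were not counted.

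The deepest library was thoracic replicate 1, with 53186131 counts, and the other 5 held 32103071 to 33790634. Values are counts per 1000000 library counts (CPM) after TMM scaling, a correction for library composition. The label motor neuron was checked against markers. All 8 motor neuron genes were detected, with summed levels of 309 to 636 CPM in cervical and 373 to 579 CPM in thoracic libraries, while 14 of 14 spinal interneuron genes summed to 1342 to 1454 and 1234 to 1254 CPM and 9 of 9 neural progenitor genes to 881 to 1140 and 1077 to 1404 CPM. The libraries thus held RNA of other neural cells, and none of these values assigns a cofactor gene to motor neurons. Mesenchyme genes summed to 14.7 to 157 CPM in cervical and 87.7 to 162 CPM in thoracic libraries, and ganglion genes to 118 to 169 and 146 to 179 CPM. Endothelial, macrophage, erythroid and muscle genes each stayed at or below 23.5 CPM, and no gene of these lists was at 0 in all 6 libraries.

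Levels of different genes are compared per kb of the exon length given in the deposited table. Pbx3 stood at 58.1 ± 1.57 CPM per kb in cervical libraries (mean ± SD, n = 3) and 48.2 ± 4.21 in thoracic ones, above 97.8% of tested genes. Meis3 followed at 43.2 ± 5.69 and 44.0 ± 2.83 CPM per kb, and Meis2 at 41.6 ± 5.09 and 37.2 ± 3.63. Meis3 thus ranked level with Meis2 per length although its CPM was far lower, since its exons span 3173 bases against 12043 for Meis2. Pbx2 came next at 31.5 ± 1.88 and 29.97 ± 2.05 CPM per kb and Meis1 at 24.2 ± 3.06 and 25.9 ± 2.66. The Pknox genes were lower, with Pknox1 at 10.5 ± 0.207 and 9.56 ± 0.841 and Pknox2 at 10.01 ± 1.12 and 8.89 ± 0.710 CPM per kb. Pbx4 was lowest at 3.70 ± 0.456 and 3.98 ± 0.420 CPM per kb, still above 57.5% of tested genes.

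The order of the 8 means was the same in both regions. Library values overlapped between Meis3 and Meis2 and between Pknox1 and Pknox2 in both regions, and in thoracic libraries also between Pbx3 and Meis3 and between Pbx2 and Meis1. Each other neighbouring pair was separated in all 3 libraries of a region. The wide steps were those from Meis1 to Pknox1 (2.31-fold in cervical, 2.71-fold in thoracic libraries) and from Pknox2 to Pbx4 (2.71-fold and 2.23-fold).

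**Figure D1:**
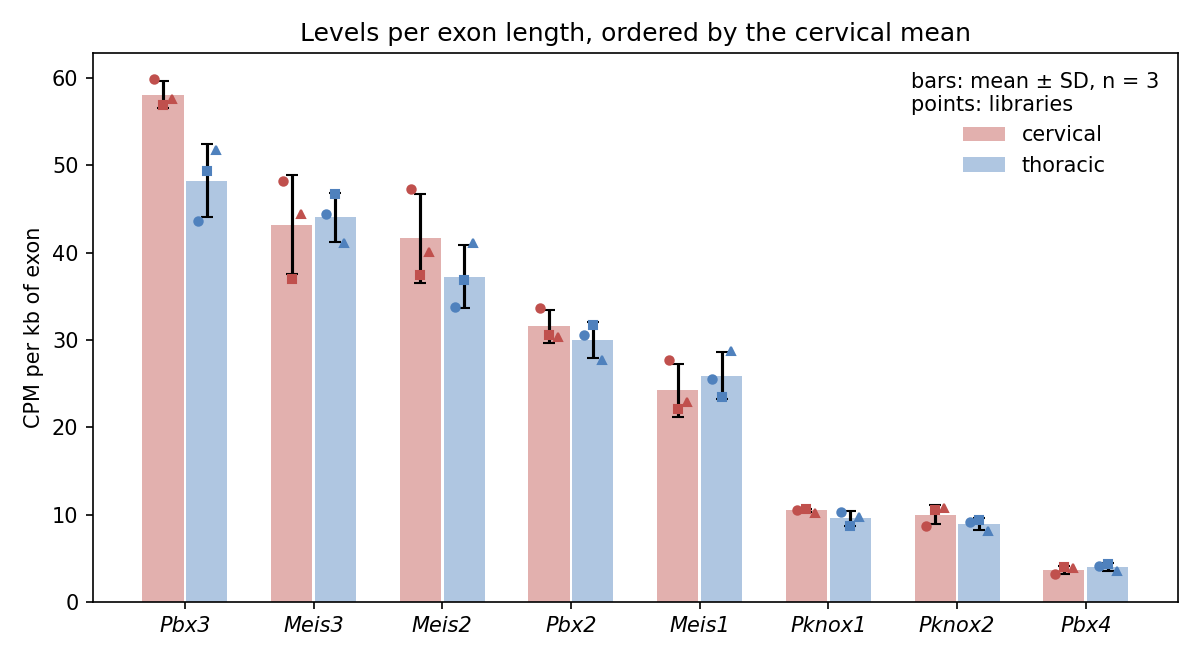
CPM per kb of exon (vertical axis) of the 8 genes, ordered by the cervical mean; bars are means over 3 libraries with SD, points are single libraries, cervical red and thoracic blue. Pbx3 is highest at 58.1 and 48.2 CPM per kb and Pbx4 lowest at 3.70 and 3.98.

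Pbx3, on chromosome 2 from 34061469 to 34263154 (mm39, minus strand), encodes a Pbx protein found through much of the embryonic nervous system. Its level was 366, 347 and 352 CPM in cervical replicates 1, 2 and 3 and 266, 301 and 316 CPM in the thoracic replicates. All 3 cervical values lay above all 3 thoracic ones, and the lowest value was that of thoracic replicate 1. The log2 fold change, cervical minus thoracic, was 0.27 (SE 0.07, 95% interval 0.11 to 0.42, edgeR unadjusted p = 0.00288). Adjusted over all genes, edgeR's p was 0.182, or 0.0551 with the replicate number as a block. DESeq2 (adjusted p = 0.0465) and edgeR without a low-count filter (0.00641) called it, and over all alternatives tried its adjusted p ranged from 0.00641 to 0.454. The summed interneuron level given above also had no overlap between regions, and most of its difference lay in Pax2 (526 to 573 CPM in cervical, 422 to 450.1 CPM in thoracic libraries). Of the 14 interneuron genes 4 were called, and Sim1 (3.76 to 9.36 against 18.1 to 34.7 CPM), Gata3 (10.7 to 12.4 against 17.5 to 24.5 CPM) and Lmx1b (6.67 to 8.48 against 13.9 to 18.1 CPM) lay the other way without overlap. Schwann and neural crest genes, mostly Foxd3, summed to 240.0 to 260.1 CPM in cervical and 188 to 198 CPM in thoracic libraries. The part of these cells in the Pbx3 values was not tested. In bulk RNA, fewer cells of a type and less RNA per cell cannot be told apart.

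Pbx2, on chromosome 17 from 34810240 to 34816374 (plus strand), encodes a widely expressed Pbx protein. Its values were 123, 111 and 111 CPM in cervical and 111, 115 and 101 CPM in thoracic libraries. They overlapped between the regions. Its log2 fold change was 0.07 (SE 0.07, 95% interval -0.08 to 0.22, edgeR adjusted p = 0.876). Pbx2 shares 227 exon bases with Gpsm3 on the same strand, a gene with a mean of 57.3 counts per library.

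Pbx4, on chromosome 8 from 70285141 to 70324942 (plus strand), is known as a Pbx gene of adult testis. It was the scarcest of the 8, with 227 to 489 reads in a library. Its CPM values were 7.04, 8.89 and 8.67 in cervical and 9.13, 9.57 and 7.78 in thoracic libraries. The regions overlapped (log2 fold change -0.11, SE 0.149, edgeR adjusted p = 0.932). Its 95% interval of -0.44 to 0.22 was the widest of the 8. Per kb, Pbx2 exceeded Pbx4 by 7.61 to 10.6 times in cervical and 7.34 to 7.89 times in thoracic libraries. Pbx3 exceeded Pbx2 by 1.78 to 1.90 times in cervical and 1.43 to 1.87 times in thoracic libraries.

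**Figure D2:**
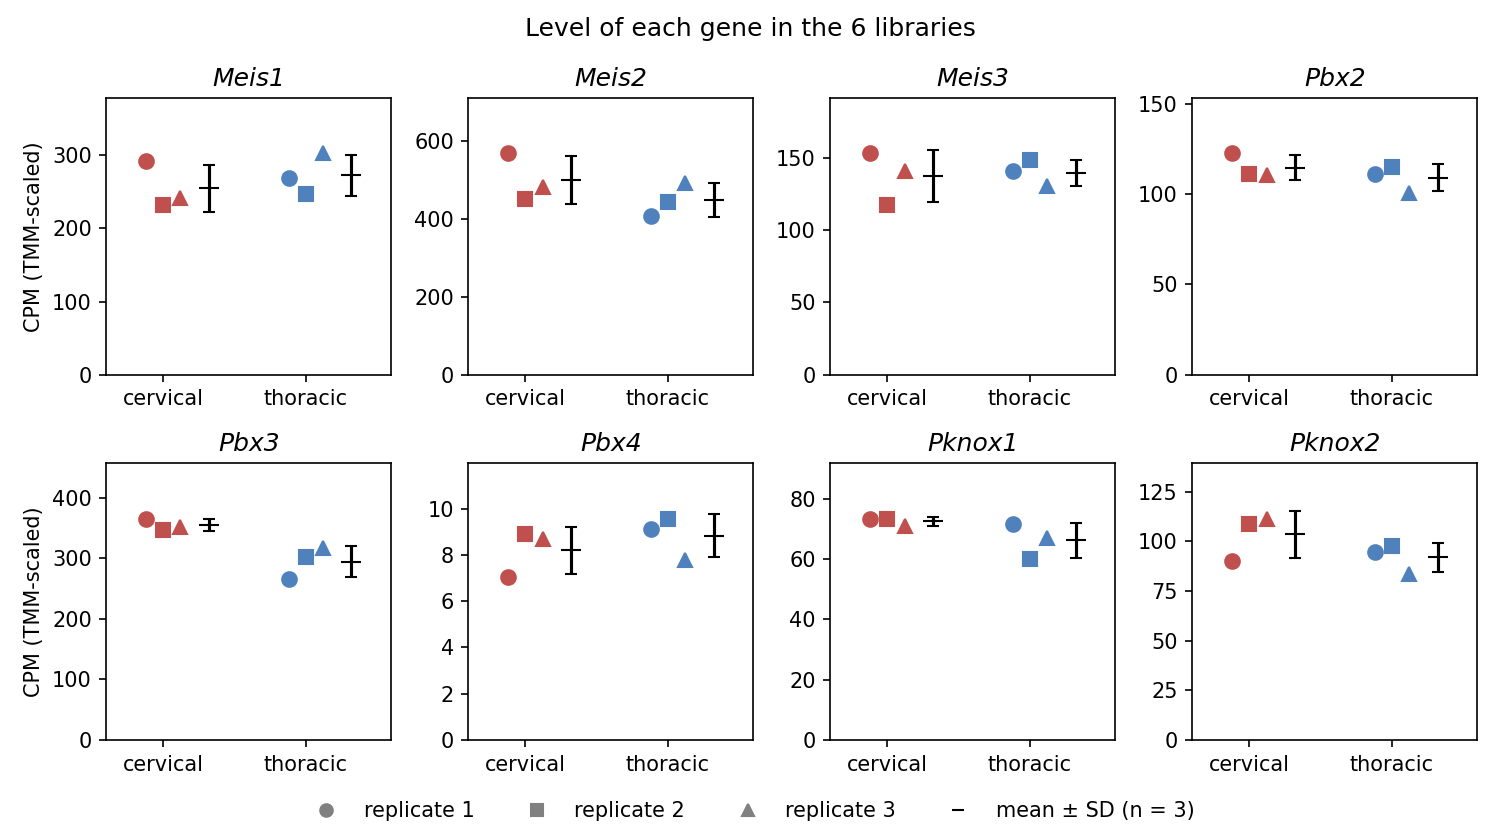
TMM-scaled CPM (vertical axis, from 0, its own scale in each panel) of each gene in the cervical (red) and thoracic (blue) libraries; symbols mark the replicate number and bars the mean ± SD of 3 libraries. The regions are separate for Pbx3 (347 to 366 against 266 to 316 CPM) and overlap for the other 7 genes.

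Meis2, on chromosome 2 from 115693545 to 115896320 (minus strand), was the most abundant of the 8 in CPM. Its protein is a Pbx partner with roles in limb, brain and neural crest development. It reached 569, 451 and 483 CPM in cervical and 407, 444 and 494 CPM in thoracic libraries. Cervical replicate 1 was highest and thoracic replicate 1 lowest, while replicates 2 and 3 of both regions intermingled. The log2 fold change was 0.16 (SE 0.09, 95% interval -0.05 to 0.37, edgeR adjusted p = 0.751). Leaving out replicate 1 of the cervical region lowered the estimate to 0.06, and leaving out that of the thoracic region to 0.09.

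Meis1, on chromosome 11 from 18829817 to 18968985 (minus strand), encodes a Hox and Pbx partner known from blood and limb development. Its CPM values were 292, 232 and 241 in cervical and 269, 247 and 303 in thoracic libraries. The highest value was that of thoracic replicate 3 and the regions overlapped (log2 fold change -0.10, SE 0.10, 95% interval -0.31 to 0.12, edgeR adjusted p = 0.888). Left-out libraries moved the estimate to between -0.20 (without cervical replicate 1) and -0.02 (without thoracic replicate 3). Meis1 shares 1029 exon bases with Gm37818 on the same strand (mean of 456 counts per library) and 896 with Gm16140 on the opposite strand (140.2). Reads in the stretch shared with Gm37818 cannot be assigned with certainty, whether or not strand was used in counting. For the stretch shared with Gm16140 this depends on the strand setting, which the sources used here do not give.

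Meis3, on chromosome 7 from 15909015 to 15920429 (plus strand), has been studied in hindbrain patterning. It stood at 153, 117 and 141 CPM in cervical and 141, 148 and 130.2 CPM in thoracic libraries. The thoracic values lay within the cervical range (log2 fold change -0.03, SE 0.09, 95% interval -0.23 to 0.17, edgeR adjusted p = 0.980). Its estimate changed sign to 0.07 without cervical replicate 2 and to 0.02 without thoracic replicate 2.

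Cervical replicate 1 held the highest cervical value of Meis1, Meis2, Meis3, Pbx2 and Pbx3 and the lowest of Pbx4 and Pknox2. The same library had the highest summed motor neuron (636 CPM), interneuron (1454 CPM) and erythroid (23.5 CPM) levels of the 6. It also had the lowest neural progenitor (881 CPM), mesenchyme (14.7 CPM) and endothelial (4.84 CPM) levels. The part of any of these cell types in the values of the cofactor genes was not tested.

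Shares within the Meis subfamily do not depend on library scaling. Meis2 made up 38.4, 38.8 and 37.3% of the summed Meis level per kb in cervical libraries and 32.6, 34.5 and 37.0% in thoracic ones. All cervical shares lay above all thoracic shares, with means of 38.2 ± 0.759% and 34.7 ± 2.23% (n = 3 each), 3.47 points apart. The exact permutation test, two-sided, gave p = 0.1, the smallest that 3 against 3 libraries can give, and 0.4 after adjustment over the 4 shares tested. The ratio of Meis2 to Meis1 per kb was 1.71, 1.70 and 1.75 in cervical and 1.33, 1.57 and 1.43 in thoracic libraries, without overlap. That ratio uses the same values as the Meis2 share and is not separate evidence. The ratio of Meis3 to Meis2 overlapped between regions (0.988 to 1.11 in cervical, 1 to 1.31 in thoracic libraries). So did that of Meis3 to Meis1 (1.68 to 1.94 in cervical, 1.43 to 1.99 in thoracic libraries). Meis3 took 39.6 ± 1.55% and 41.2 ± 3.59% (exact permutation p = 0.5, adjusted 0.667) and Meis1 22.2 ± 0.792% and 24.2 ± 2.04% (exact permutation p = 0.3, adjusted 0.6), each with overlap between regions. The overlap for Meis1 depended on the exon-length weighting. With raw counts in place of counts per kb, the Meis1 share difference was -3.1 points, without overlap (exact permutation p = 0.1, unadjusted). Raw counts gave Meis2 a difference of 4.07 points (exact permutation p = 0.1, unadjusted). For Meis3 the raw-count difference was -0.966 points (exact permutation p = 0.5, unadjusted). The Meis3 difference of -1.54 points ranged from -3.60 without thoracic replicate 3 to -0.305 without thoracic replicate 2, and the Meis1 difference of -1.93 points from -1.04 to -3.04 without the same libraries.

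**Figure D3:**
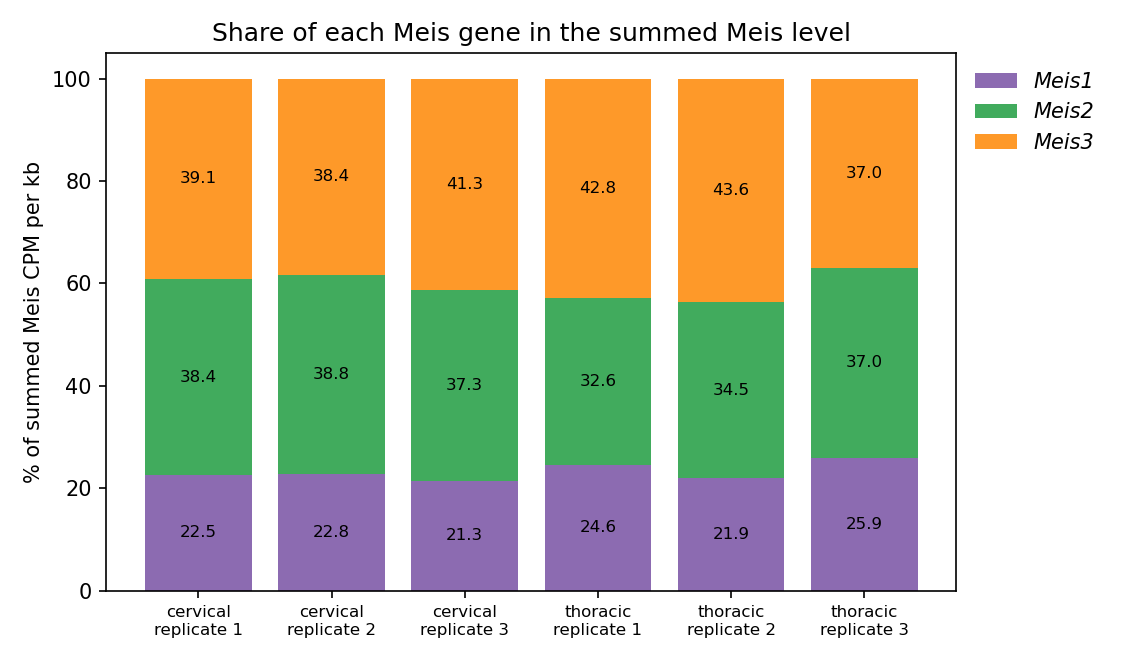
Percent of the summed Meis CPM per kb (vertical axis) held by Meis1, Meis2 and Meis3 in each library (horizontal axis). The Meis2 segment is 37.3 to 38.8% in the cervical and 32.6 to 37.0% in the thoracic libraries.

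Pknox1 (also Prep1), on chromosome 17 from 31783708 to 31826667 (plus strand), encodes a Pbx partner expressed in most tissues. Its values were 73.3, 73.5 and 70.9 CPM in cervical and 71.7, 60.1 and 67.02 CPM in thoracic libraries. The cervical values spanned a narrow range, and thoracic replicate 1 lay inside it (log2 fold change 0.13, SE 0.07, 95% interval -0.03 to 0.30, edgeR adjusted p = 0.731). Pknox1 shares 155 exon bases with Gm50455 on the opposite strand, a gene with a mean of 96 counts per library.

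Pknox2, on chromosome 9 from 36802278 to 37058703 (minus strand), is the other member of the pair and the longest gene of the 8. Its values were 90.1, 109 and 111 CPM in cervical and 94.7, 97.4 and 83.6 CPM in thoracic libraries. Cervical replicates 2 and 3 lay above the thoracic values, while cervical replicate 1 lay among them (log2 fold change 0.17, SE 0.09, 95% interval -0.03 to 0.37, edgeR adjusted p = 0.687). Per kb, Pknox1 made up 51.2 ± 3.20% of the pair in cervical and 51.8 ± 3.45% in thoracic libraries (exact permutation p = 1, adjusted 1).

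The regions share replicate numbers, and differences were also taken within each number. The log2 difference, cervical minus thoracic, was 0.46, 0.20 and 0.15 for Pbx3 in replicates 1, 2 and 3, and 0.03, 0.29 and 0.08 for Pknox1. These 2 of the 8 genes kept one sign in all 3 pairs, where 31.4% of all tested genes did. Meis2 had 0.48 in replicate 1 but 0.02 and -0.03 in the others. Pknox2 had -0.07, 0.16 and 0.41, and Meis1 had 0.12, -0.09 and -0.33. Meis3 stood at 0.12, -0.33 and 0.11, Pbx2 at 0.14, -0.05 and 0.13, and Pbx4 at -0.38, -0.11 and 0.16. For 6 of the 8 genes the sign thus changed with the replicate number, as it did for most tested genes.

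**Figure D4:**
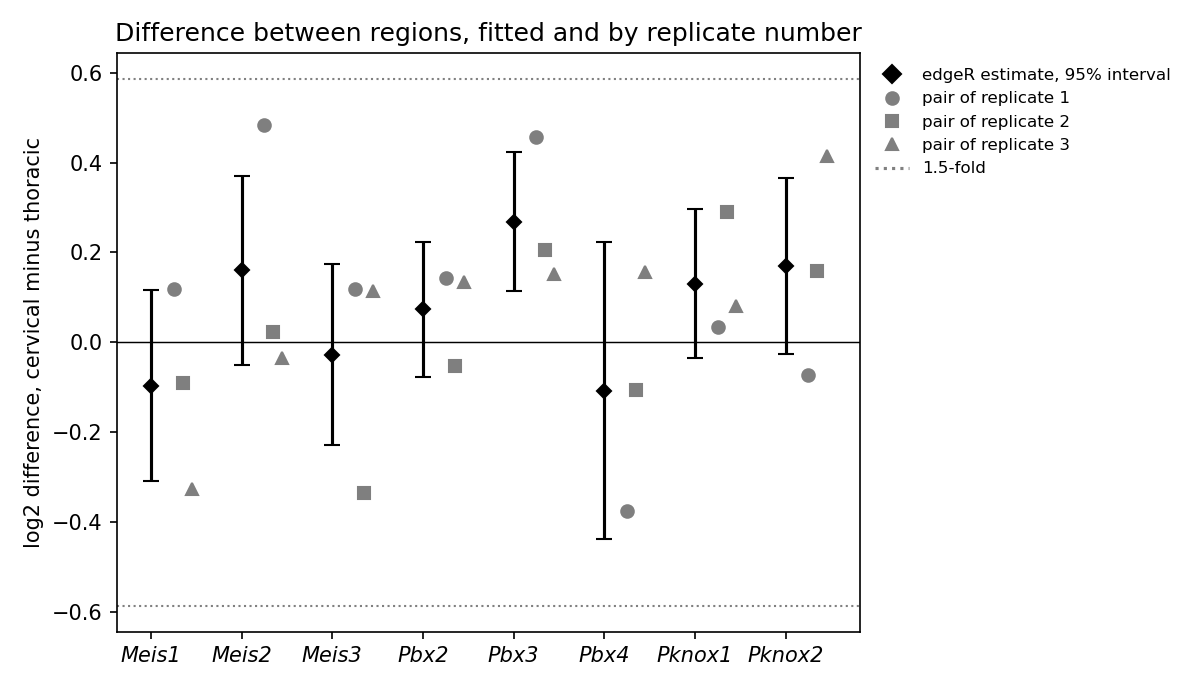
Log2 difference, cervical minus thoracic (vertical axis), of each gene; diamonds are edgeR estimates with 95% intervals, grey symbols the differences within replicate numbers 1, 2 and 3, dotted lines 1.5-fold. The interval of Pbx3 (0.11 to 0.42) is the only one of the 8 that does not include 0.

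Against the background of all genes, the 8 stood as follows. With edgeR's quasi-likelihood test 0 of 8 were called at an adjusted p below 0.05, where 0.542% of 21972 tested genes were. At an unadjusted p below 0.05 it was 1 of 8, Pbx3, against 8.47%. With the replicate block 0 of 8 were called, against 1.97%. Limma-voom called 0 of 8 and 107 of the 21972 genes. DESeq2 called 1 of 8, Pbx3, and 408 of the 21972 genes. Pbx3 was also the 1 gene without overlap between regions, against 13.7% of all tested genes. The median log2 fold change was 0.10 over the 8 genes and 0.01 over all tested genes, and the median size without sign was 0.119 and 0.128. Among the 10200 tested genes with a mean CPM within the range of the 8, from 8.51 to 475, the median size was 0.0715.

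Hox genes, the DNA-binding partners, are given from the same fit for scale. The table lists 39 Hox genes, 29 passed the filter, and 12 of these were called, 10 toward cervical and 2 toward thoracic. With the block 20 were called. Their median size of log2 fold change was 0.640, and 5 of 29 had a 95% interval inside 1.5-fold. The difference between the lists was not tested. Leaving out cervical replicate 2 gave 7 Hox calls and leaving out cervical replicate 3 gave 2. Leaving out thoracic replicates 2 or 3 gave 5 or 4. The 119 calls over all genes became 41, 9, 37 and 45 in the same order and 432 with the block.

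**Figure D5:**
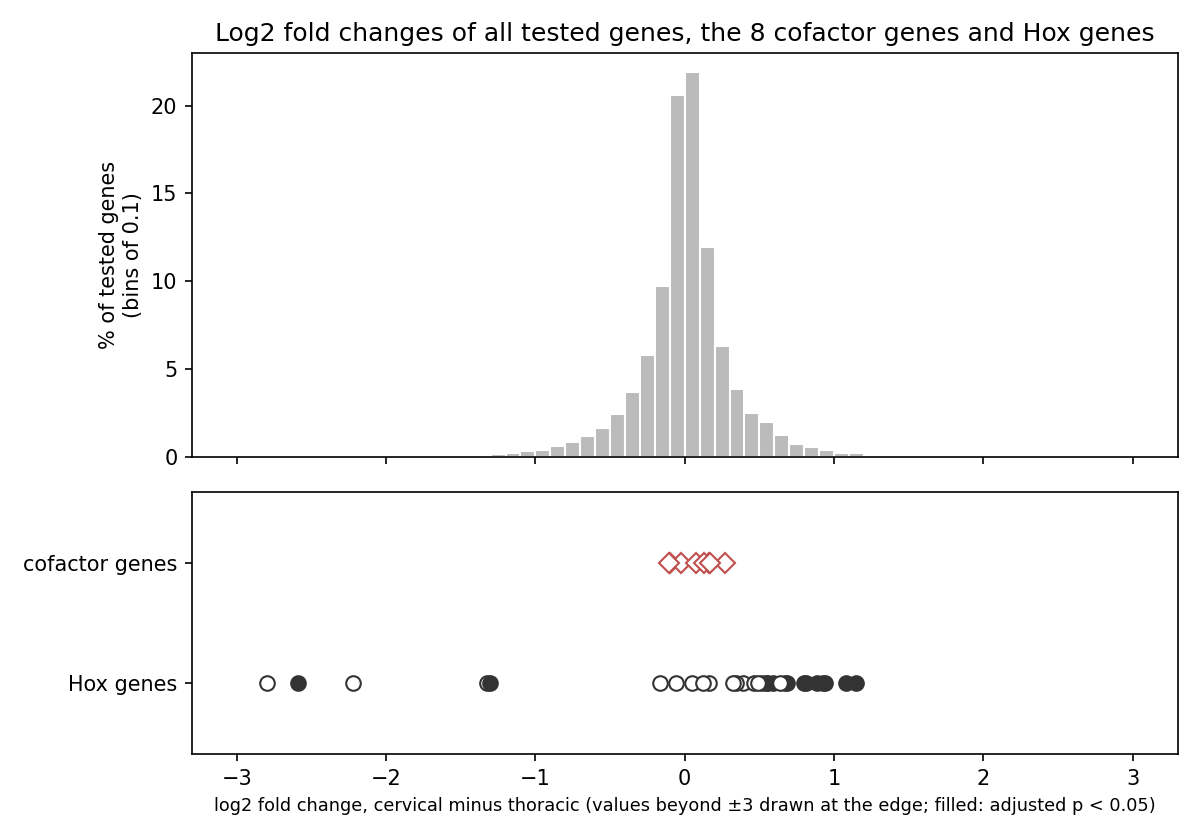
Percent of 21972 tested genes in bins of 0.1 of the log2 fold change, cervical minus thoracic (upper panel), with the 8 cofactor genes and 29 Hox genes on the same horizontal axis below; filled symbols have an edgeR adjusted p below 0.05. The cofactor genes lie between -0.11 and 0.27 and none is filled, while 12 Hox genes are filled.

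Other TALE homeobox genes, namely the Irx, Tgif and Mkx genes, had 0 of 9 called (0 at an unadjusted p below 0.05, 0 by DESeq2 and limma-voom). Their median log2 fold change was 0.163. The smallest p-values were those of Tgif2, a repressor of retinoic acid and TGF-beta responses (0.56, edgeR adjusted p = 0.659), and of the Iroquois patterning genes Irx4 (0.40, adjusted p = 0.683), Irx2 (0.21, adjusted p = 0.705) and Irx1 (0.16, adjusted p = 0.823). Irx2 had the highest level over both regions together, at 14.6 CPM per kb in cervical and 12.6 in thoracic libraries, with Irx3 at 12.9 and 14.1. Both lay above the Pknox genes and below Meis1.

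Partners and regulators of TALE proteins, a list of 18 that includes corepressors, coactivators and non-muscle myosins, had 0 of 18 called, against 0.542% of all tested genes. At an edgeR unadjusted p below 0.05 it was 1 of 18, against 8.47%, and 3 had no overlap between regions, against 13.7%. Their median log2 fold change was -0.04. The 1 gene below 0.05 was Myh9, a non-muscle myosin heavy chain, at 76.8, 85.5 and 87.9 CPM in cervical and 97.9, 101.7 and 101.8 CPM in thoracic libraries. Its values did not overlap at a log2 fold change of -0.27 (SE 0.07). The edgeR adjusted p was 0.148, or 0.0505 with the block. DESeq2 called it (adjusted p = 0.0451), as did edgeR without a low-count filter (0.0273), with a range of 0.0273 to 0.348 over the alternatives. Foxp1, a transcription factor of limb-level motor neurons, had an estimate of 0.23 on the log2 scale (edgeR adjusted p = 0.682), the corepressor Ncor1 one of -0.09 (0.725) and the Pbx-binding protein gene Pbxip1 one of -0.29 (0.771). Myh10, the most abundant per kb, stood at 49.5 CPM per kb in cervical and 50.95 in thoracic libraries.

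Genes whose pattern over the 6 libraries was most like each of the 8 were ranked by Pearson's r of log2 CPM among 10025 genes (10026 for Pbx4) with a mean CPM of at least 10. The closest were Wdr77 (r = 0.997) and Plcb1 (0.980) for Pbx3, Rprd1b (0.984) and Scaper (0.982) for Meis2, Eprs (0.995) and Wipf2 (0.993) for Meis1, and Wdr6 (0.992) and Actr1a (0.989) for Meis3. They were Mzt2 (0.996) and Ccnd1 (0.988) for Pbx2, Fam43a (0.981) and Tkfc (0.972) for Pbx4, C030006K11Rik (0.993) and Gm47260 (0.988) for Pknox1, and Snrpg (0.992) and Coq8b (0.984) for Pknox2. Between 10 genes (0.0998%, for Meis2) and 92 genes (0.918%, for Meis1) had an r above 0.95. None of the 8 was among the 2 closest genes of another.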

How the data were processed

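Ribosomal RNA-depleted total RNA of 6 libraries (10 to 20 ng of RNA, a stranded kit, 15 PCR cycles, per the labels' protocols) was read as the authors' deposited whole-number counts of reads per gene, with exon lengths and mm39 positions per the file headers. FastQC 0.11.9, STAR 2.7.5b and featureCounts 2.0.1 are named in the submitters' processing notes. Here, edgeR 4.0.16 (R 4.3.3, filterByExpr with a minimum count of 10, TMM) tested 21972 genes with region as the only term, by the quasi-likelihood test with Benjamini-Hochberg adjustment over all of them. SEs were derived from the estimate and its F statistic. Alternatives were a replicate block, median-of-ratios scaling, library totals, no filter, a mean CPM of at least 1, DESeq2 1.42.0, limma-voom 3.58.1 and leaving out each library. Shares were also taken from raw counts in place of counts per kb. On 3 sets of simulated counts for the comparison of regions (21476 genes tested on average), true changes of 1.5-fold were found in 38.1%, of 2-fold in 61.7% and of 4-fold in 86.2% of cases, and 43 of 410 calls (10.5%) were false, above the rate that 0.05 aims at. After removing each region's mean, same-numbered cervical and thoracic libraries correlated at 0.163, 0.160 and 0.195, each over 0.1. The numbers were therefore taken to pair the libraries in the block and in the differences within each number. The main test, with its SEs and intervals, did not use this pairing. Chi-square per degree of freedom between replicates was 10.1 to 16.2 (1 would be counting noise alone). This cannot show that the libraries came from different embryos. Each library counted as a sample because the labels call them biological replicates. Named genes were the 8 members and, per list, the 4 genes with the smallest p and the most abundant per kb. Members and lists were chosen with earlier results of these data known. One further gene of the family is not reported here. The reference transcripts are of GRCm38 and gave sequences only.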

Additional observations from a re-analysis of the deposited data

How the results depend on the processing

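No member was called in any of the 6 leave-one-out fits, under other scalings, with limma-voom, with a mean CPM of at least 1 or with the replicate block, which changed no call of a member. The count of called members was 1 (Pbx3) without a low-count filter and 1 with DESeq2. For partners it was 2 without the filter (Foxp1 and Myh9) and 1 with DESeq2. Calls over all genes, 119 at first, numbered 432 with the replicate block, 747 without a filter (39190 genes tested) and 408 with DESeq2. Hox calls, 12 at first, numbered 20, 22 and 19 in those settings. When a library was left out, calls over all genes numbered 9 to 159. Leaving out a library gave 2 to 16 Hox calls. The estimate of Pbx3 ranged from 0.20 to 0.32 when a library was left out, and was 0.27 without a filter and 0.27 with DESeq2. That of Meis3 ranged from -0.11 to 0.0712 in the same way and was above 0 when replicate 2 of the cervical (0.0712) or the thoracic region (0.0180) was left out. When a library was left out, Pbx2 ranged from 0.02 to 0.12, Pbx4 from -0.19 to -0.0081, Pknox1 from 0.07 to 0.19 and Pknox2 from 0.11 to 0.26, and the Meis2 share difference from 2.42 to 4.64 points. The difference in the Pknox1 share, -0.553 points, ranged from -2.50 to 0.778, and lay above 0 when cervical replicate 3 (0.715), thoracic replicate 1 (0.0622) or thoracic replicate 3 (0.778) was left out. Within replicate pairs the Meis2 share difference of 3.47 points had an exact sign-flip p of 0.25, the smallest that 3 pairs allow. The causes were not tested. Pbx4, with 227 to 489 reads per library, had the least precise estimate.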

Other observations

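Meis1 and Pknox2 lined up in nearly opposite order over the libraries, a pair chosen after the values were seen. Meis1 was highest in thoracic replicate 3 (303 CPM), followed by cervical replicate 1 (292), thoracic replicate 1 (269) and thoracic replicate 2 (247), and lowest in cervical replicates 3 (241) and 2 (232). Pknox2 was lowest in thoracic replicate 3 (83.6 CPM), followed by cervical replicate 1 (90.1), thoracic replicate 1 (94.7) and thoracic replicate 2 (97.4), and highest in cervical replicates 2 (109) and 3 (111). The order crosses the regions in both genes.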
